A study of Mus musculus with 42 samples.

Results

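Car1, Car2, Car4, Slc26a3, Guca2a and Guca2b are 6 genes through which surface cells of the large intestine handle bicarbonate, chloride and fluid. They were taken by symbol from a table of 22180 genes, and each was measured by 1 probe set. The arrays held 42 samples of gastrointestinal epithelium from adult mice that were untreated, not selected for sex and at least 7 to 8 weeks old. The study asked which genes mark stem cells of the pylorus, the outlet of the stomach, against other gut populations.

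25 samples came from Lgr5-EGFP-IRES-CreERT2 mice, called IRES below, in which the Lgr5 locus drives green fluorescence together with an inducible Cre that was not activated here. The IRES pylorus gave 4 arrays of brightly green cells (Lgr5Hi), 4 of dimly green cells (Lgr5Lo) and 2 arrays of whole tissue. The small intestine gave 2 Lgr5Hi, 2 Lgr5Lo and 2 crypt arrays and 1 whole array, and the colon gave 3 Lgr5Hi, 3 Lgr5Lo and 2 whole arrays. Lgr5-EGFP-DTR mice, called DTR, carry green fluorescence with a diphtheria toxin receptor under Lgr5, and their pylorus gave 3 arrays each of Lgr5Hi, Lgr5Lo and Lgr5Neg cells. Wildtype (WT) pylorus was sorted with an antibody to the water channel Aqp5 into 4 Aqp5Pos and 4 Aqp5Neg arrays. The labels call the samples biological replicates without saying whether each came from 1 animal or a pool. The sorts follow Lgr5 transcription or surface Aqp5, so an Lgr5Lo gate can hold several cell types.

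Carbonic anhydrases interconvert carbon dioxide and bicarbonate. Car1 and Car2 act in the cytosol, and Car4 is anchored to the outer face of the apical membrane. Slc26a3, mutated in human congenital chloride diarrhoea, exchanges luminal chloride for cellular bicarbonate in surface colonocytes. Guca2a encodes guanylin and Guca2b uroguanylin, peptides secreted into the lumen that bind the receptor guanylate cyclase Gucy2c. The cyclic GMP it makes acts through the kinase Prkg2, among others, to open the chloride channel Cftr and to restrain the sodium-proton exchanger Slc9a3. Guanylin is best known from the colon and uroguanylin from the small intestine.

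In the GRCm38.p6 annotation Car1 lies on chr3:14766214-14808365 and Car2 on chr3:14886269-14900770, with Car3 between them and 77.9 kb from one to the other. Car4 lies on chr11:84957754-84966054 and Slc26a3 on chr12:31433142-31473922. Guca2a (chr4:119637732-119639465) and Guca2b (chr4:119656601-119658945) are neighbouring coding genes 17.1 kb apart. The probe sets were named through the array's gene annotation, without positions inside the genes. RefSeq promoter windows were matched for 4 of the 6 genes, not for Car1 and Car2. The 150 bases before the start site are printed for these 4 because their transcripts shared a low pyloric and high intestinal level (below). Capitals mark GTTAAT, the core that the epithelial factor HNF1 recognises. The windows are chr11:84957604-84957753 on the plus strand for Car4, chr12:31438069-31438218 on the plus strand for Slc26a3, chr4:119637582-119637731 on the plus strand for Guca2a and chr4:119658946-119659095 on the minus strand for Guca2b. The Slc26a3 window belongs to a start site inside the annotated gene span.
Car4: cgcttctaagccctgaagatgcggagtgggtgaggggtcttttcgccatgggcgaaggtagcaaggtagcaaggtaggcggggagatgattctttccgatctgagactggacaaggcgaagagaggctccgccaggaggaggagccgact
Slc26a3: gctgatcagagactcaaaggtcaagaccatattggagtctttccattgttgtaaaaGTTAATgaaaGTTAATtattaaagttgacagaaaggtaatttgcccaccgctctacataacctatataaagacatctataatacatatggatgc
Guca2a: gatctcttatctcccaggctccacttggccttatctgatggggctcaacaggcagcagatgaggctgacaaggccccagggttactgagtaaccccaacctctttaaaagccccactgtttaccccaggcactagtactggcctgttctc
Guca2b: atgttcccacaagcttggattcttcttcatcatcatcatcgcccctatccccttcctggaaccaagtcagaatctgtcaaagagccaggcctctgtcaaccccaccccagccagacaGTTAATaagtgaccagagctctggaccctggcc

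GTTAAT stood in 2 places of the Slc26a3 window, at bases -94 to -89 and -84 to -79 from the start site, and in 1 place of that of Guca2b, at bases -33 to -28. The same letters, on either strand, were found in 7.10% of 32851 mouse promoter windows that ran from 250 bases before to 50 after a start site. TATAAA stood at bases -30 to -25 of Slc26a3 and at bases 43 to 48 after the Car4 start site, and in 13.6% of all windows. TTTATG (in 11.9% of all windows), CAAAGTCCA (0.475%), GGGCGG (35.7%) and CTTTGAT (3.73%) had no match in these 4 windows. These matches are letters in a window, and no binding was measured.

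Array values are log2 intensities, so a difference of 1 doubles the intensity. The array medians ran from 3.82 to 4.25. Detection calls are not part of the table, so where a group lies near these medians its distance from another group may be understated, and levels of different genes are not compared because their probes differ. Lgr5 was higher in every Lgr5Hi array than in any Lgr5Lo array of the same organ and model. Gastric identity genes had mean levels of 9.66 to 11.93 in the pyloric arrays and of 4.09 to 5.21 in the sorted, crypt and whole small intestinal arrays and the sorted colonic arrays. The 2 crypt arrays had the lowest Lgr5 among the IRES groups, 4.81 and 5.04, and the highest surface marker means, 9.43 and 9.51. The enterocyte gene Sis was also highest there, at 11.62 and 11.73. Their titles say crypt, while their population field says Whole. The words crypt and crypts below name these 2 arrays by title, and their markers do not show a crypt location. Replicate 1 of the whole colon had a gastric profile, with Atp4a, the parietal cell proton pump, at 12.69, above every pyloric array. Gast, the gastrin gene, read 5.13 and 5.20 in the 2 whole colon arrays, below every pyloric array, the lowest of which read 6.23. Replicate 1 had a correlation across genes of 0.962 with whole pylorus and 0.917 with colonic Lgr5Lo cells. It read 2.498 for Car1, 4.62 for Car4, 2.84 for Slc26a3, 4.92 for Guca2a and 4.25 for Guca2b, against 11.61, 10.57, 10.16, 13.07 and 8.70 in replicate 2. Each of these 5 genes lay within the range of the pyloric arrays in replicate 1 and above all of them in replicate 2. Car2 read 11.81 in replicate 1, above every pyloric array, and 11.11 in replicate 2. Both whole colon arrays were left out of the tests, and fits with them are in the closing section. Replicate 3 of the colonic Lgr5Hi cells also stood apart, and printed differences of the 6 genes are given without it as well where leaving it out turned their sign, changed a call or moved them by over 1 log2 unit.

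**Figure D1:**
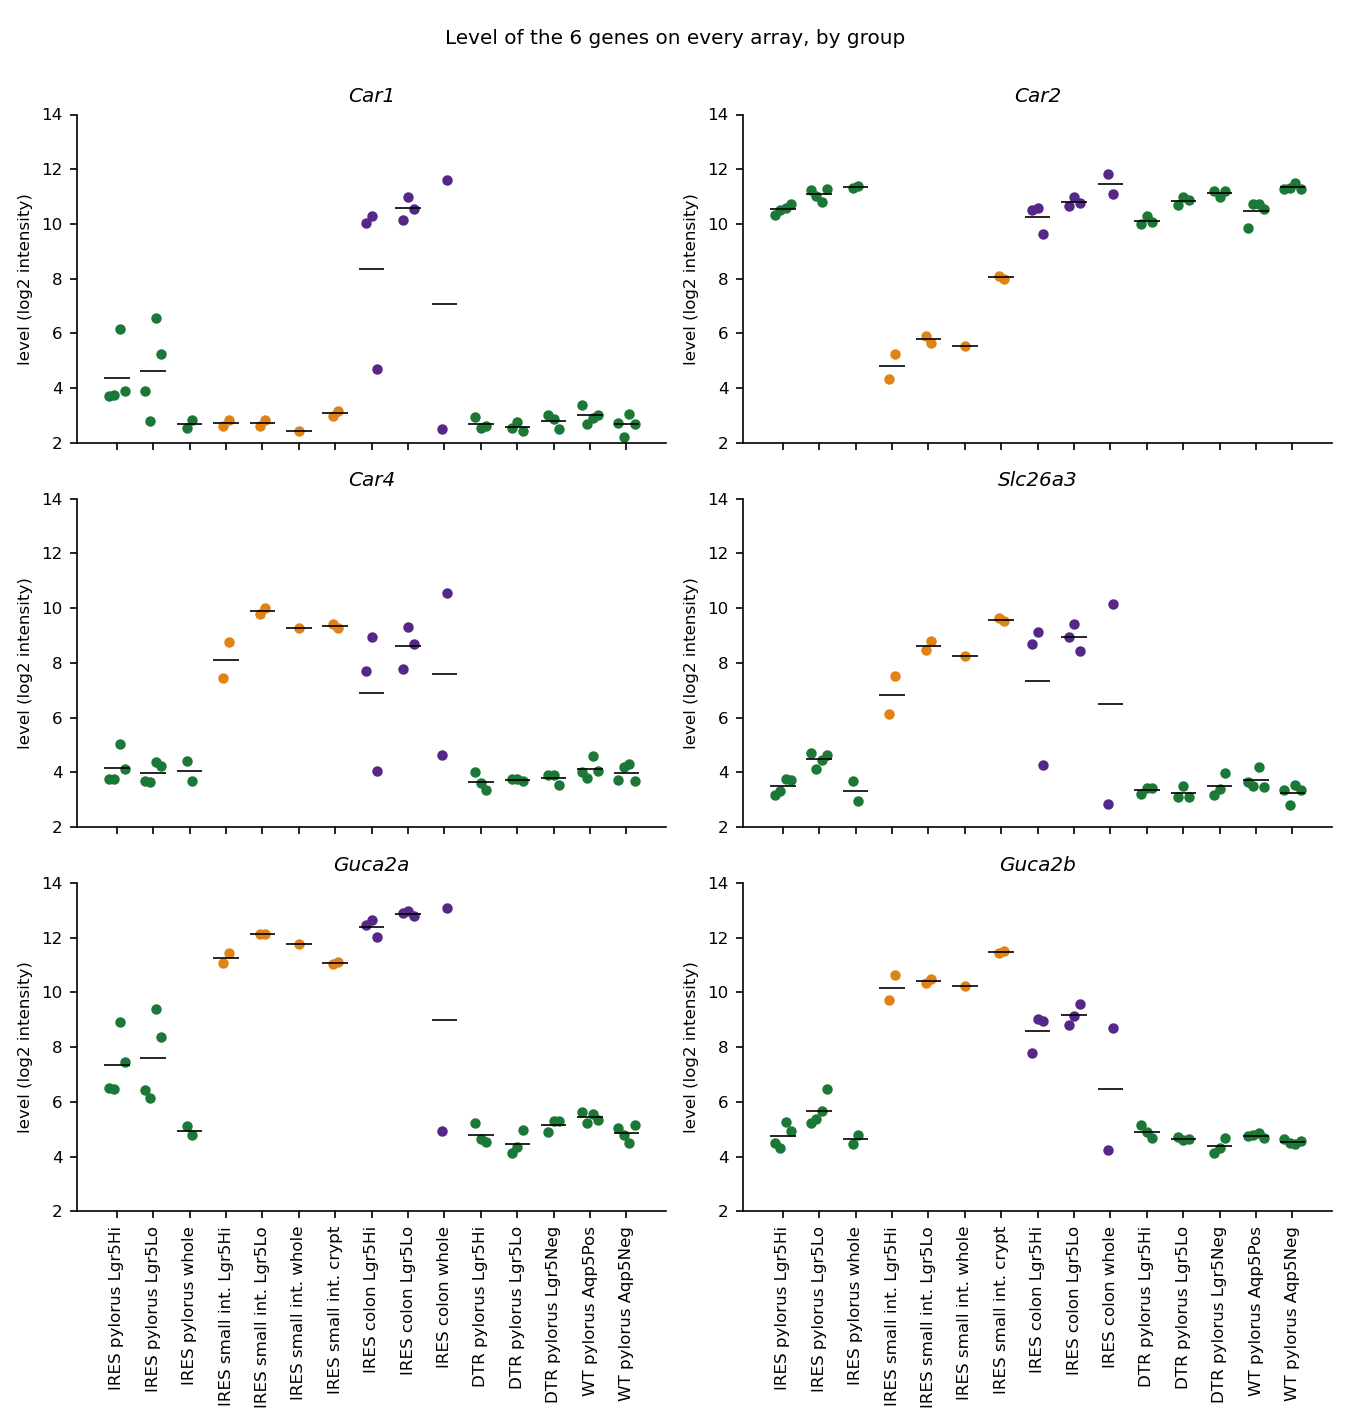
Log2 intensity of the 6 genes in each of the 42 arrays by group (dots), with the group mean as a line; green is pylorus, orange small intestine and purple colon. Car1 is high in the colon apart from 2 arrays (Lgr5Hi replicate 3 and whole colon replicate 1), Car2 is low in the sorted and whole small intestine, and Car4, Slc26a3, Guca2a and Guca2b are low in the pylorus.

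The carbonic anhydrases followed 3 different patterns over the organs. Car1 was a colonic transcript, Car2 was high in pylorus and colon and low in the small intestine, and Car4 was high in small intestine and colon and low in the pylorus. In every test here, called means a limma p under 0.05 after Benjamini-Hochberg adjustment for all 22180 genes. In bulk samples, fewer cells of a type and less RNA per cell cannot be told apart.

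Car1, a low-activity cytosolic form, read 10.16, 10.99 and 10.55 in the 3 colonic Lgr5Lo arrays and 10.04, 10.30 and 4.71 in the 3 colonic Lgr5Hi arrays. All but the last of these lay above every array of the other organs. In the small intestine Car1 read 2.62 and 2.83 in Lgr5Hi cells, 2.60 and 2.83 in Lgr5Lo cells, 2.97 and 3.17 in crypts and 2.45 in whole tissue, all below the array medians. In Lgr5Lo cells the colonic level exceeded the small intestinal level by 7.85 ± 1.13 (SE; n = 3 against 2; limma adjusted p = 5.02e-05), a 231-fold difference in intensity. The difference from pyloric Lgr5Lo cells was 5.94 ± 0.94 (n = 3 against 4; limma adjusted p = 0.000119). In Lgr5Hi cells the differences were 5.62 ± 1.13 from small intestine (limma adjusted p = 0.0033) and 3.97 ± 0.94 from pylorus (limma adjusted p = 0.00772). These Lgr5Hi differences grew to 7.45 and 5.79 without replicate 3 of the colon, whose Car1 level lay within the pyloric range. Without colonic replicate 1 or 2, which leaves replicate 3 with a single partner, the difference from the pylorus was 3.13 or 2.99 and lost its call (limma adjusted p = 0.0778 and 0.0878), and without small intestinal Lgr5Hi replicate 1 the difference from small intestine lost it at an adjusted p of 0.0583. Each small intestinal group holds 2 arrays, so a fit without one of them rests on a lone array that is assumed, here and in the fits below, to vary like the other groups.

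Car1 in the IRES pylorus varied more between replicates than between gates. It read 3.70, 3.74, 6.17 and 3.91 in Lgr5Hi cells and 3.88, 2.80, 6.54 and 5.26 in Lgr5Lo cells of replicates 1 to 4. Replicate 3 was the high array in both gates, and replicate 4 was also raised in Lgr5Lo cells. Whole IRES pylorus read 2.53 and 2.85, the 9 DTR arrays 2.42 to 3.02 and the 8 WT arrays 2.22 to 3.37. Some other intestinal signals were also high in replicate 3. Guca2a read 8.91 and 9.38 in replicate 3, against 6.16 to 6.51 in replicates 1 and 2. In replicate 4 Guca2a read 7.46 in Lgr5Hi cells, where Car1 was at 3.91, and 8.39 in Lgr5Lo cells. The intestinal transcription factor Cdx2 read 6.35 in replicate 3 of Lgr5Hi cells, against 4.00 to 4.79 in the other 3. The mean of 8 goblet cell markers was 8.48 there, against 6.55 to 7.37 in the other Lgr5Hi arrays. Whole pylorus had goblet means of 8.57 and 8.80 with low Car1 and with Guca2a at 5.11 and 4.78, but that list was split. In whole pylorus the means of Clca1, Fcgbp, Zg16 and Spink4 lay above those of both IRES gates. Those of Muc2 (4.68), Tff3 (6.11) and Retnlb (2.92) lay below both gates, and that of Agr2 lay between them. The part of Cdx2 and the goblet markers in the Car1 level was not tested, and leaving replicate 3 of both gates out changed no call of any of the 6 genes.

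Car2, the high-activity cytosolic form that supplies bicarbonate and protons in many secretory cells, had group means of 10.12 to 11.35 over the pyloric and sorted colonic groups. The 3 colonic Lgr5Lo arrays read 10.65, 11.00 and 10.75, and the 4 pyloric Lgr5Lo arrays 11.23, 11.02, 10.81 and 11.29. The 2 small intestinal Lgr5Lo arrays read 5.92 and 5.63 and the 2 Lgr5Hi arrays 4.33 and 5.26. The small intestinal gates lay far below both other organs, without overlap. Small intestine minus pylorus was -5.74 ± 0.27 in Lgr5Hi cells (53.5-fold; limma adjusted p = 6.9e-13) and -5.31 ± 0.27 in Lgr5Lo cells (39.8-fold; limma adjusted p = 3.02e-12). It was higher in colonic than in small intestinal cells by 5.44 ± 0.28 in Lgr5Hi cells and 5.02 ± 0.28 in Lgr5Lo cells (43.4-fold and 32.5-fold; limma adjusted p = 3.9e-11 and 5.83e-11). Between colon and pylorus no difference was called, at -0.30 ± 0.24 in Lgr5Hi cells and -0.29 ± 0.24 in Lgr5Lo cells. Within the small intestine the 2 crypt arrays stood apart from the rest, at 8.09 and 8.00, with whole tissue at 5.55.

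Car4, the membrane-anchored form, read 9.78 and 10.01 in small intestinal Lgr5Lo cells and 7.45 and 8.78 in small intestinal Lgr5Hi cells. The colonic Lgr5Lo arrays read 7.76, 9.33 and 8.71 and the Lgr5Hi arrays 7.72, 8.96 and 4.05. The pyloric arrays of all 3 mouse models lay between 3.34 and 5.03, near the array medians. Colonic replicate 3 of Lgr5Hi cells was thus the single sorted intestinal array inside the pyloric range. In Lgr5Lo cells Car4 was higher than in the pylorus by 5.90 ± 0.78 in small intestine (limma adjusted p = 1.02e-05) and by 4.61 ± 0.69 in colon (limma adjusted p = 5.56e-05). In Lgr5Hi cells these differences were 3.95 ± 0.78 (limma adjusted p = 0.00101) and 2.74 ± 0.69 (limma adjusted p = 0.0118), the latter 4.17 without colonic replicate 3. Without colonic replicate 1 or 2 that difference was 2.33 or 1.72 and was not called (limma adjusted p = 0.0835 and 0.147). Colon minus small intestine was not called, at -1.21 ± 0.82 in Lgr5Hi cells and -1.29 ± 0.82 in Lgr5Lo cells. The Lgr5Hi value turned to 0.23 without colonic replicate 3, so its sign rested on that array.

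The anion exchanger Slc26a3 was an intestinal transcript as well, with its highest mean in the small intestinal crypt arrays, at 9.65 and 9.52. Small intestinal Lgr5Lo cells read 8.46 and 8.78 and Lgr5Hi cells 6.13 and 7.51. Colonic Lgr5Lo cells read 8.95, 9.41 and 8.45 and Lgr5Hi cells 8.68, 9.12 and 4.26. The pyloric arrays lay between 2.82 and 4.72, so colonic Lgr5Hi replicate 3 was again the one sorted intestinal array at pyloric levels. Against the pylorus Slc26a3 was higher in colonic Lgr5Lo cells by 4.45 ± 0.68 (21.9-fold; limma adjusted p = 7.84e-05) and in small intestinal Lgr5Lo cells by 4.14 ± 0.77 (17.6-fold; limma adjusted p = 0.000726). In Lgr5Hi cells the differences were 3.86 ± 0.68 and 3.33 ± 0.77 (limma adjusted p = 0.000412 and 0.00455), the latter 2.64 and not called without small intestinal replicate 2. The colonic difference was 5.41 without colonic replicate 3. Between colonic and small intestinal Lgr5Hi cells the difference was 0.54 ± 0.81 and not called. Without colonic replicate 3 it was 2.08 and called (limma adjusted p = 0.00187), so that comparison turned on 1 array.

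Both guanylin ligands were high in small intestine and colon and low in the pylorus, but their orders over the intestine differed. Guca2a read 12.90, 12.97 and 12.79 in colonic Lgr5Lo cells and 12.46, 12.63 and 12.03 in colonic Lgr5Hi cells. Small intestinal Lgr5Lo cells read 12.12 in both arrays, Lgr5Hi cells 11.06 and 11.45, and crypts 11.04 and 11.10. The colonic gates of each kind thus lay above the small intestinal ones, yet the differences of 1.12 ± 0.68 in Lgr5Hi and 0.77 ± 0.68 in Lgr5Lo cells were not called (limma adjusted p = 0.545 in Lgr5Hi cells). Guca2a was higher than in the pylorus by 5.04 ± 0.57 in colonic and 3.92 ± 0.65 in small intestinal Lgr5Hi cells (32.8-fold and 15.1-fold; limma adjusted p = 1.24e-06 and 0.00016). In Lgr5Lo cells the same differences were 5.29 ± 0.57 and 4.53 ± 0.65.

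Guca2b ran the other way between the intestinal organs, with its highest level in the 2 small intestinal arrays titled crypt, at 11.46 and 11.53. It read 9.74 and 10.62 in small intestinal Lgr5Hi cells against 7.80, 9.02 and 8.95 in colonic Lgr5Hi cells, without overlap. That difference of -1.59 ± 0.39 (colon minus small intestine) was called (3.01-fold; limma adjusted p = 0.0205). It lost its call without small intestinal Lgr5Hi replicate 2 (-1.15) or colonic Lgr5Hi replicate 1 (-1.19; limma adjusted p = 0.334 and 0.126). In Lgr5Lo cells Guca2b read 10.33 and 10.48 in small intestine and 8.82, 9.14 and 9.57 in colon, and the difference of -1.23 ± 0.39 was not called (limma adjusted p = 0.0736). Over the pylorus Guca2b was higher in Lgr5Hi cells by 5.43 ± 0.37 in small intestine and by 3.84 ± 0.33 in colon (limma adjusted p = 4.05e-10 and 1.42e-08). In Lgr5Lo cells these differences were 4.74 ± 0.37 and 3.51 ± 0.33. The adjacent genes thus shared a pyloric low and had opposite signs between colon and small intestine, although a test of that contrast between genes was not run.

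Ordered by group mean over the 14 groups other than whole colon, Car1 ran from colonic Lgr5Lo (10.57) and Lgr5Hi (8.35) cells, whose ranges overlapped, through the IRES pyloric gates (4.62 and 4.38) to 10 groups between 2.45 and 3.07 whose neighbours did not differ beyond their spread. Car2 ran from 11.35 to 10.12 over the 10 pyloric and colonic groups, with a gap beyond the spread between WT Aqp5Neg and DTR Lgr5Neg cells alone, and then dropped in steps to crypts (8.05) and to small intestinal Lgr5Lo (5.78), whole (5.55) and Lgr5Hi (4.80) samples. Car4 began with small intestinal Lgr5Lo cells (9.89), and from crypts (9.36) down to colonic Lgr5Hi cells (6.91) and on through the pyloric groups (4.17 to 3.66) no neighbours differed beyond their spread. The link to the pylorus was the wide colonic Lgr5Hi group, with replicate 3 at 4.05. Every small intestinal and colonic Lgr5Lo array lay above every pyloric array. Slc26a3 ran from crypts (9.58) through colonic Lgr5Lo (8.94), small intestinal Lgr5Lo (8.62) and colonic Lgr5Hi cells (7.36) to small intestinal Lgr5Hi cells (6.82). The last stood clear of every pyloric group (4.49 to 3.24), while colonic Lgr5Hi replicate 3 read 4.26. Guca2a ran from colonic Lgr5Lo cells (12.89) to crypts (11.07), then to the IRES pyloric gates (7.59 and 7.34), with the other pyloric groups at 5.43 to 4.47. Guca2b ran from crypts (11.49) through small intestinal (10.41 to 10.18) and colonic gates (9.18 and 8.59) to IRES pyloric Lgr5Lo cells (5.67), with the rest of the pylorus at 4.90 to 4.37.

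Counted over the 6 genes in Lgr5Hi cells, 5 were called higher in colon than pylorus and 0 lower, where 8.30% of all genes were called in either direction. Against the pylorus the small intestine had 4 higher and 1 lower, Car2, with 13.5% of all genes called. Between colon and small intestine 2 were higher in colon (Car1 and Car2) and 1 lower (Guca2b), with 3.40% of all genes called. In Lgr5Lo cells 5 were higher in colon than pylorus (7.55% of all genes called), 4 were higher and 1 lower in small intestine than pylorus (9.38%), and 2 were higher in colon than small intestine (5.39%). The median difference of the 6 genes was 4.53 between colonic and pyloric Lgr5Lo cells, where that of all genes was -0.06. These comparisons share their groups in pairs and are not independent of each other.

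**Figure D2:**
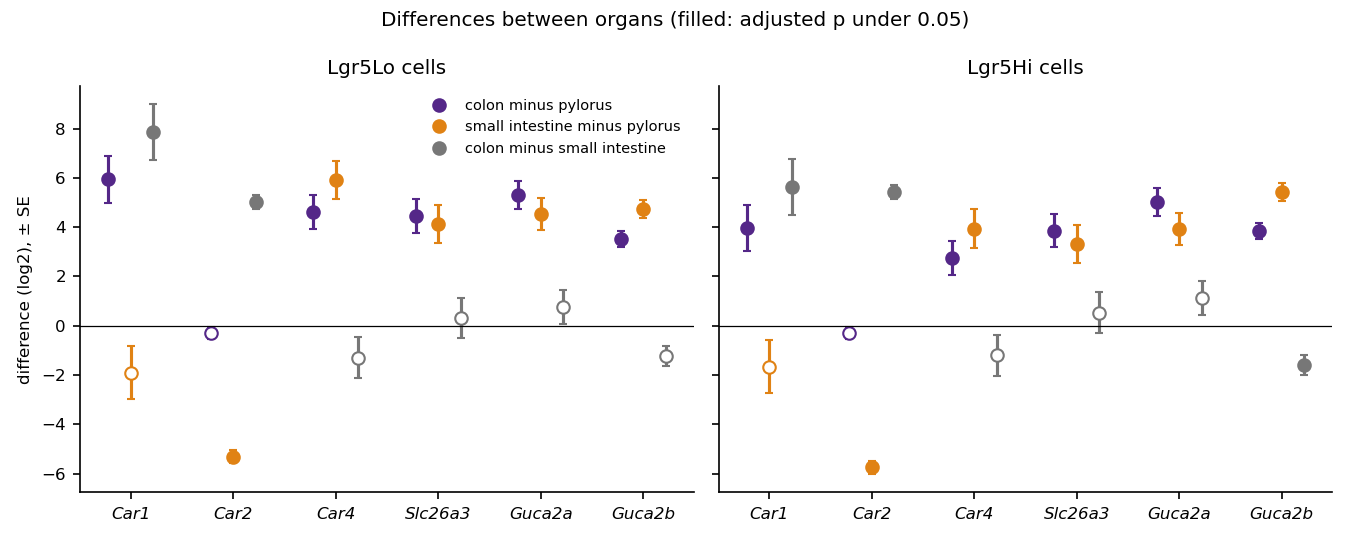
Log2 differences between organs for the 6 genes in Lgr5Lo cells and in Lgr5Hi cells, with bars of 1 SE; filled points have a limma adjusted p under 0.05. Car2 alone is called lower in small intestine than in pylorus, and Car1 and Car2 alone are called higher in colon than in small intestine.

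The receptor and downstream genes of the guanylin pathway were measured for 9 of a list of 10. Gucy2c, the receptor, had group means of 8.18 to 9.43 in the small intestine and of 8.25 and 8.75 in the sorted colon, against 3.77 to 4.50 in the pylorus. It was higher than in the pylorus by 4.43 ± 0.38 in colonic and 4.45 ± 0.43 in small intestinal Lgr5Hi cells (limma adjusted p = 1.53e-08 and 1.12e-07). In Lgr5Hi cells 3 of the 9 were called higher and 2 lower in colon than in pylorus, and 4 were higher and 2 lower in small intestine. Cftr was among the higher ones, by 1.72 ± 0.29 and 1.63 ± 0.33, as was Pde5a, a phosphodiesterase that breaks down cyclic GMP, by 2.42 and 2.81. Prkg2 was higher in small intestine by 2.44 ± 0.31 and was lower in colonic than in small intestinal Lgr5Hi cells, at -1.76 ± 0.33. Slc9a3 went against the ligands and the receptor. Its mean was 10.34 in pyloric Lgr5Hi cells, 4.88 in small intestinal and 4.63 in colonic Lgr5Hi cells, and the colonic difference from the pylorus was -5.71 ± 0.41 (limma adjusted p = 8.47e-10).

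Among other members of the carbonic anhydrase and Slc26 families, Car5b, a mitochondrial form, and Slc26a9, a gastric chloride and bicarbonate transporter, had the opposite organ pattern to Car4 and Slc26a3. Colonic minus pyloric Lgr5Hi cells gave -2.84 ± 0.31 for Car5b and -4.27 ± 0.27 for Slc26a9 (limma adjusted p = 8.04e-07 and 1.07e-10). Slc26a6, an exchanger of small intestinal brush borders, was lower in colonic than in small intestinal Lgr5Lo cells, at -4.10 ± 0.40. Of 11 measured carbonic anhydrases other than the 3 described, 0 were called between colon and small intestine in either gate. Of 18 measured genes of epithelial ion transport, 7 were higher and 1 lower in colonic than in small intestinal Lgr5Lo cells. Those higher included Slc5a8, a butyrate transporter, by 5.22 ± 0.41, Best2, an anion channel of colonic goblet cells, by 4.22 ± 0.33, and Scnn1a, a subunit of the epithelial sodium channel, by 2.12 ± 0.29. Clca4b was the lower one, at -5.53 ± 0.58.

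Between the Lgr5 gates of the colon all 6 genes had lower means in Lgr5Hi than in Lgr5Lo cells, and none was called. The differences were -2.22 ± 1.01 for Car1, -0.56 ± 0.25 for Car2, -1.69 ± 0.74 for Car4, -1.58 ± 0.73 for Slc26a3, -0.51 ± 0.61 for Guca2a and -0.59 ± 0.35 for Guca2b (n = 3 against 3). Of all 22180 genes 0% were called here in limma, while 1161 had an unadjusted p under 0.05, 4 of these 6 among them. With the replicate number as a block 2 genes were called, none of the 6. The median difference was -1.08 for the 6 genes and 0.00 for all genes. Without Lgr5Hi replicate 3 the differences were -0.40 for Car1, -0.27 for Car2, -0.26 for Car4 and -0.03 for Slc26a3, so the size of these 4 rested largely on that array. Guca2a and Guca2b stood at -0.34 and -0.77 without it.

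Replicate 3 of the colonic Lgr5Hi cells was far below the other colonic arrays in 3 of the 6 genes and near them in the other 3. Ranked by the gap below the lowest of the other 5 sorted colonic arrays, Car1 was first of 22180 genes, Slc26a3 the third and Car4 the fifth, with gaps of 5.33, 4.19 and 3.67. Emp1, an epithelial membrane protein, and Krt20, a keratin of differentiated surface cells, held the other places among the first 5. Krt20 read 4.95 there against 8.69 and 9.08 in the other Lgr5Hi arrays and 8.74 to 9.73 in Lgr5Lo cells. Guca2a at 12.03, Guca2b at 8.95 and Car2 at 9.64 were near the other colonic arrays. The array had 23 genes at least 2 log2 units below all the others, against 7 in replicate 1 of Lgr5Hi and 0 in each of the other 4.

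Marker lists also differed between these arrays. The mean of 9 measured surface colonocyte markers was 7.56, 7.95 and 6.47 in Lgr5Hi replicates 1, 2 and 3 and 7.86 to 8.57 in Lgr5Lo cells. The mean of 8 goblet markers was 11.18, 11.51 and 10.68, against 11.87 to 12.04. The mean of 5 stem cell markers was 5.74, 6.43 and 7.16, against 5.17 to 5.71, and Lgr5 itself read 7.01, 7.72 and 8.35. The array with the least Car1, Car4 and Slc26a3 had the most Lgr5 and the lowest surface marker mean. From Lgr5Hi replicate 1 to replicate 2, however, Lgr5 rose together with Car1, Car4 and Slc26a3. The part of these markers in the levels was not tested.

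**Figure D3:**
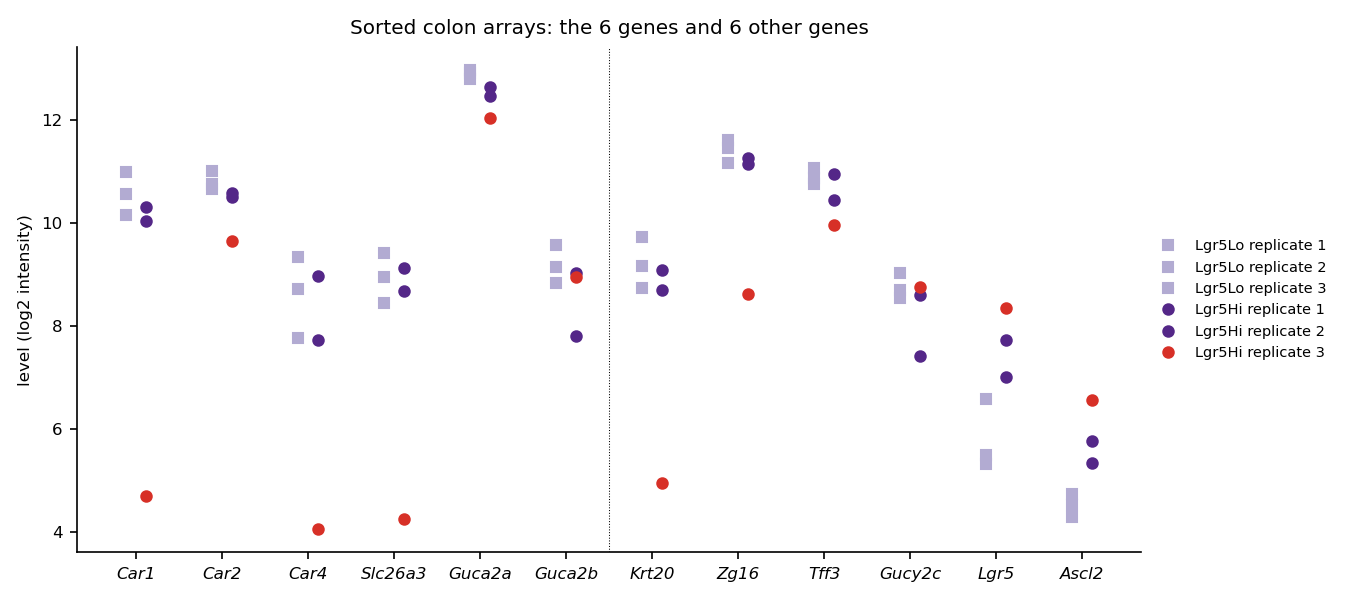
Log2 intensity in the 6 sorted colonic arrays of the 6 genes and of 6 others chosen after their values were seen (Krt20, Zg16, Tff3, Gucy2c, Lgr5 and Ascl2); squares are Lgr5Lo cells, circles Lgr5Hi cells, and replicate 3 of Lgr5Hi is red. Car1, Car4, Slc26a3 and Krt20 drop by over 3 units in the red array, while Guca2a, Guca2b and Gucy2c stay within 1 unit of another array.

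In the small intestine the means of Car2, Car4, Slc26a3, Guca2a and Guca2b were lower in Lgr5Hi than in Lgr5Lo cells, and none was called. The differences were -0.98 ± 0.31 for Car2 (limma adjusted p = 0.329), -1.78 ± 0.90 for Car4, -1.80 ± 0.89 for Slc26a3 and -0.87 ± 0.75 for Guca2a (n = 2 against 2). Of all genes 0.311% were called in this comparison, or 69 genes, a count that was 2 or 150 without Lgr5Hi replicate 1 or 2 and 5 or 24 without Lgr5Lo replicate 1 or 2. Car1 was at 0.01 ± 1.23, and Guca2b was at -0.23 ± 0.43. The median was -0.92 over the 6 genes and 0.02 over all genes. Slc26a6 was the one family member called here, at -2.24 ± 0.44 (limma adjusted p = 0.0264). All 9 measured enterocyte markers had lower means in Lgr5Hi cells and none was called. Their mean was 6.56 and 8.94 in the Lgr5Hi arrays and 9.29 and 9.88 in the Lgr5Lo arrays, and Alpi, the intestinal alkaline phosphatase, was at -3.14 ± 0.89 and Sis, the sucrase-isomaltase, at -3.04 ± 0.82. The mean of the goblet markers was 8.45 and 9.77 in the Lgr5Hi arrays and 9.81 and 10.71 in the Lgr5Lo arrays. The part of these markers in the differences of the 6 genes was not tested.

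The crypt arrays were compared with Lgr5Hi cells of the small intestine, where 14.4% of all genes were called. Of the 6 genes 3 were higher in the crypt arrays and 0 lower. Car2 was higher by 3.25 ± 0.31 (9.51-fold; limma adjusted p = 2.02e-07), Slc26a3 by 2.76 ± 0.89 (6.79-fold; limma adjusted p = 0.039) and Guca2b by 1.31 ± 0.43 (2.49-fold; limma adjusted p = 0.041). Guca2a was at -0.18 ± 0.75, and Car4 was at 1.25 ± 0.90. Slc9a3 rose by 4.66 ± 0.53, its scaffold Slc9a3r1 by 2.84 ± 0.37, Slc26a6 by 4.63 ± 0.44 and Prkg2 by 2.40 ± 0.36. Of the 18 measured genes of other epithelial ion transport 3 were higher and 3 lower in crypts. The lower ones were Slc12a2, the basolateral sodium-potassium-chloride cotransporter, at -2.89 ± 0.43, and the potassium channel subunits Kcne3 and Kcnq1 at -2.81 ± 0.37 and -2.18 ± 0.37, while Cftr was at -0.77 ± 0.38 and not called. The higher ones were Clca4a, Slc5a8 and the water channel Aqp8, by 6.19 ± 0.54, 2.38 ± 0.44 and 1.38 ± 0.45. Of the 9 measured enterocyte markers 7 were also higher in crypts, and of the 5 stem cell markers 5 were lower. Of 5 measured immune markers 3 were higher. The part of these markers was not tested. Slc26a3 and Guca2b each kept their call in 1 of the 4 fits that left out an array, the fit without Lgr5Hi replicate 2, with adjusted p up to 0.354 and 0.443 in the others.

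Whether the gate difference itself differed between organs was tested for each pair of organs, and none of the 6 genes was called. The shares of all genes called were 0.0135% for colon minus small intestine, 0.415% for colon minus pylorus and 0.0406% for small intestine minus pylorus. The replicate block raised the count over all genes from 92 to 250 for colon minus pylorus and from 9 to 55 for small intestine minus pylorus, with 0 of the 6 among them. Among the 6 genes the difference for Car4 was -1.87 ± 0.97 between colon and pylorus and -1.96 ± 1.10 between small intestine and pylorus (limma adjusted p = 0.598 and 0.714). Without colonic Lgr5Hi replicate 3 the former was -0.44, and the count over all genes was 14 in place of 92. For Car2 it was -0.01 ± 0.34 between colon and pylorus, and 0.29 without that array. Slc9a3 did differ, by -2.91 ± 0.57 for colon minus pylorus and -4.01 ± 0.65 for small intestine minus pylorus (limma adjusted p = 0.0211 and 0.0124). The colonic value was -2.54 and not called without colonic Lgr5Hi replicate 3 (limma adjusted p = 0.0876).

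**Figure D4:**
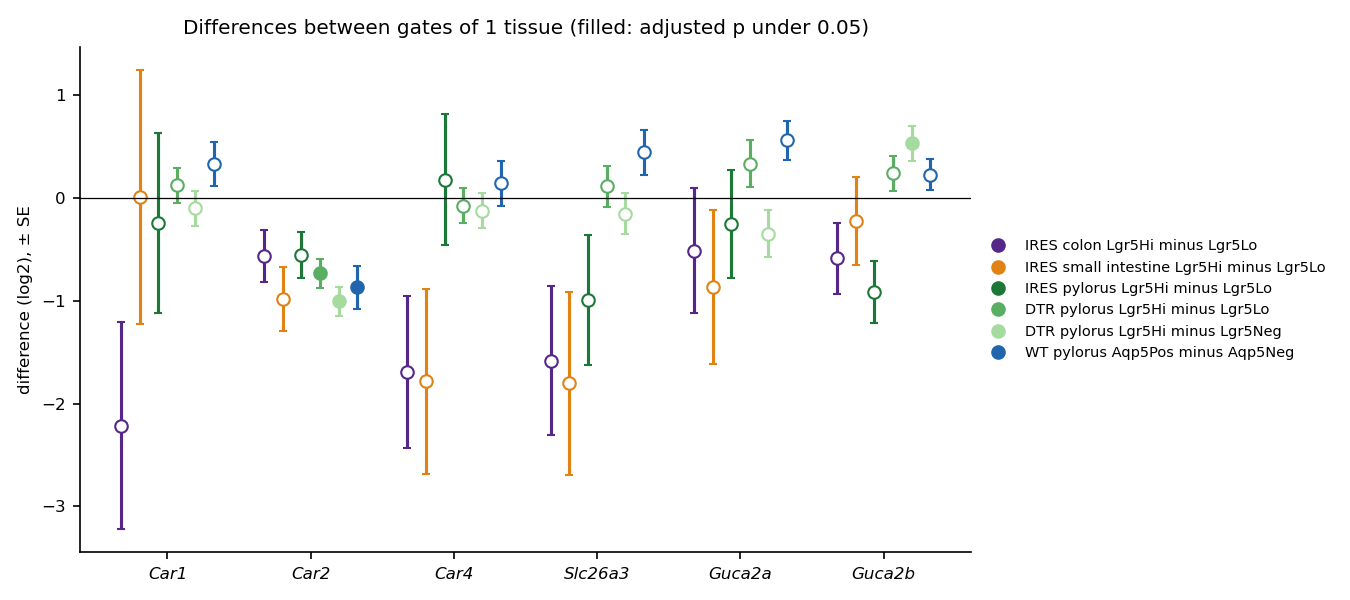
Log2 differences between sorted gates for the 6 genes in 6 comparisons, with bars of 1 SE; filled points have a limma adjusted p under 0.05. Car2 lies below 0 in all 6 comparisons and is filled in 3 of them, all in the DTR and WT pylorus.

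In the pylorus Car2 was the member of this group whose direction between gates was the same in every model. It was lower on the Lgr5Hi or Aqp5Pos side, and called in DTR and WT but not in IRES mice. In DTR mice it read 10.01, 10.29 and 10.07 in Lgr5Hi, 10.68, 11.00 and 10.89 in Lgr5Lo and 11.20, 10.98 and 11.21 in Lgr5Neg cells. All Lgr5Hi arrays lay below all others, and Lgr5Lo and Lgr5Neg overlapped. Lgr5Hi minus Lgr5Neg was -1.005 ± 0.142 (2.01-fold; limma adjusted p = 0.000298) and Lgr5Hi minus Lgr5Lo was -0.73 ± 0.14 (1.66-fold; limma adjusted p = 0.0112). The latter lost its call without Lgr5Lo replicate 2 or 3 (limma adjusted p = 0.0589 in each). Lgr5Lo minus Lgr5Neg was -0.27 ± 0.14 and not called. In WT pylorus Car2 read 9.86, 10.74, 10.74 and 10.56 in Aqp5Pos and 11.27, 11.32, 11.51 and 11.28 in Aqp5Neg cells. The groups did not overlap, and the difference of -0.87 ± 0.21 was just past the threshold (1.83-fold; limma adjusted p = 0.0497). It was called without Aqp5Pos replicate 2 or 3 and lost its call without any of the other 6 arrays, with limma adjusted p up to 0.149. In the IRES pylorus Car2 read 10.34, 10.51, 10.59 and 10.71 in Lgr5Hi and 11.23, 11.02, 10.81 and 11.29 in Lgr5Lo cells, again without overlap, and the difference of -0.55 ± 0.22 was not called (limma adjusted p = 0.226).

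The shares of all genes called in these comparisons were 18.3% for DTR Lgr5Hi against Lgr5Neg, 4.97% for DTR Lgr5Hi against Lgr5Lo, 2.20% for DTR Lgr5Lo against Lgr5Neg, 2.80% for WT and 2.34% for IRES Lgr5Hi against Lgr5Lo. Of the 6 genes 2, 1, 0, 1 and 0 were called in these comparisons. The second call between DTR Lgr5Hi and Lgr5Neg was Guca2b, higher by 0.53 ± 0.17 (limma adjusted p = 0.0447). Its values of 5.14, 4.88 and 4.68 overlapped with 4.12, 4.30 and 4.69, all close to the array medians. The call was kept without Lgr5Hi replicate 3 or Lgr5Neg replicate 3 and lost without any of the other 4 arrays, with limma adjusted p up to 0.175. In the IRES pylorus Guca2b went the other way, at 4.49, 4.31, 5.28 and 4.93 in Lgr5Hi and 5.21, 5.36, 5.65 and 6.46 in Lgr5Lo cells, a difference of -0.92 ± 0.30 that was not called (limma adjusted p = 0.127). With the replicate number as a block it was called (limma adjusted p = 0.024), in a fit that raised the count over all genes from 518 to 879. Slc26a3 read 3.17, 3.31, 3.76 and 3.73 in IRES Lgr5Hi and 4.72, 4.14, 4.44 and 4.65 in Lgr5Lo cells, apart but not called at -0.99 ± 0.63. Guca2a read 5.62, 5.24, 5.54 and 5.33 in WT Aqp5Pos and 5.05, 4.79, 4.51 and 5.14 in Aqp5Neg cells, apart and not called at 0.56 ± 0.19 (limma adjusted p = 0.133).

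Other carbonic anhydrases changed with the pyloric gates in both directions. Car13, a cytosolic form encoded beside Car1, was lower where Car2 was, at -1.60 ± 0.26 in IRES Lgr5Hi against Lgr5Lo cells, -3.10 ± 0.30 in DTR Lgr5Hi against Lgr5Neg cells and -1.54 ± 0.29 in WT (limma adjusted p = 0.00194, 1.53e-05 and 0.0173). Car9, a membrane form induced by low oxygen, was lower in the same comparisons, at -1.41 ± 0.26, -1.63 ± 0.18 and -1.58 ± 0.33. Car12, another membrane form, was higher, by 1.93 ± 0.31 in IRES and 2.74 ± 0.16 in DTR Lgr5Hi cells, and was not called in WT. Of the 11 measured, 1 rose and 2 fell in the IRES pylorus, 3 rose and 2 fell in DTR Lgr5Hi against Lgr5Neg cells, 1 rose and 2 fell in DTR Lgr5Hi against Lgr5Lo cells, and 0 rose and 2 fell in WT. Slc9a3 rose by 1.93 ± 0.38, 2.86 ± 0.15 and 2.17 ± 0.21 in the IRES, DTR (against Lgr5Neg) and WT comparisons, and Slc26a9 rose by 1.36 ± 0.15 in DTR and 0.98 ± 0.20 in WT cells.

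**Figure D5:**
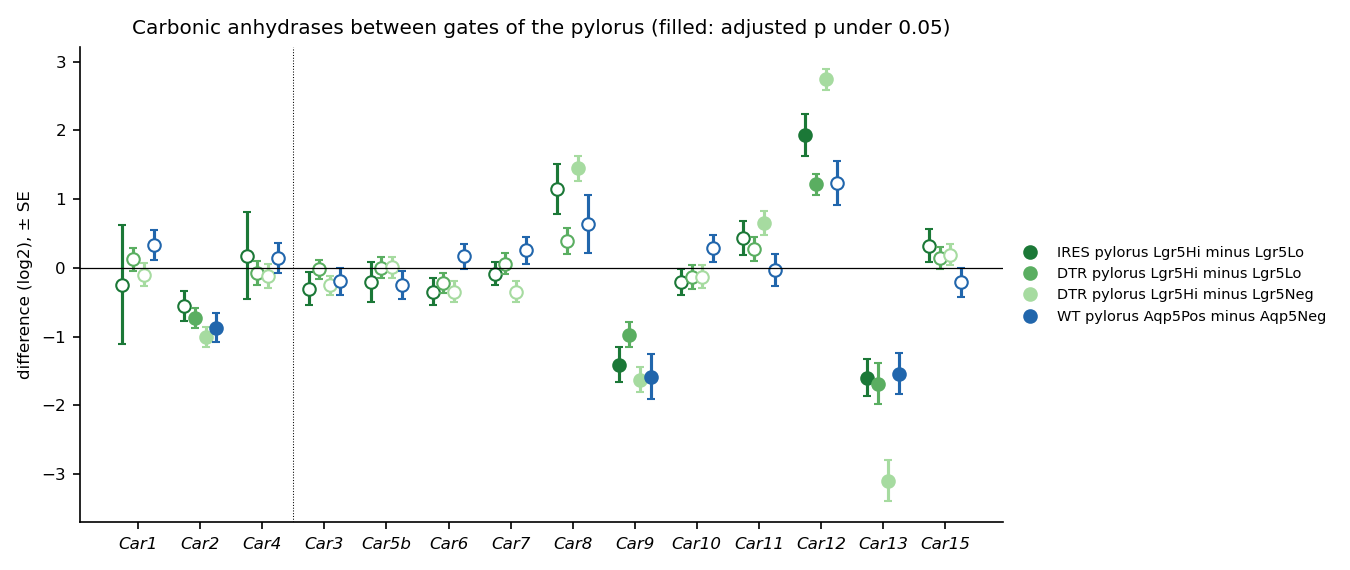
Log2 differences between pyloric gates for Car1, Car2, Car4 and the 11 other measured carbonic anhydrases, with bars of 1 SE; filled points have a limma adjusted p under 0.05. Car2, Car9 and Car13 lie below 0 and Car12 above 0 in the comparisons plotted.

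Parietal cells, which use Car2 to make acid, and pit cells were among the cell types a pyloric gate could hold, and their markers moved with Car2 in some comparisons. Atp4a read 8.29, 7.99, 9.64 and 9.04 in IRES Lgr5Hi cells against 10.85 to 11.57 in Lgr5Lo cells, and 4 of 5 parietal markers were called lower. In WT 2 of 5 were lower, with Atp4a at 4.88 to 7.66 in Aqp5Pos and 9.30 to 10.97 in Aqp5Neg cells. In DTR mice Atp4a was 5.41 to 6.90 in Lgr5Hi, 8.29 to 8.93 in Lgr5Lo and 4.89 to 5.64 in Lgr5Neg cells. The Car2 mean was highest in Lgr5Neg cells, whose range overlapped that of Lgr5Lo cells for Car2 and that of Lgr5Hi cells for Atp4a. Between Lgr5Hi and Lgr5Neg cells 0 of 5 parietal markers were called. All 5 pit markers were lower in DTR Lgr5Hi than in Lgr5Neg cells (median difference -3.93) and than in Lgr5Lo cells (-3.22), and in Aqp5Pos than in Aqp5Neg cells (-1.32), and 0 of 5 were called in the IRES pylorus (-0.52). The part of either cell type in the Car2 difference was not tested. Of 7 red blood cell genes, which would carry Car1 and Car2 from blood, 1 was measured. This gene, Slc4a1, had group means from 4.03 to 4.68, near the array medians, and the part of blood was not tested.

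Over the 14 groups other than whole colon, the group means of Car4, Slc26a3, Guca2a and Guca2b ran together, with Pearson correlations from 0.922 (Car4 with Guca2a) to 0.979 (Car4 with Guca2b). Car2 ran against them, at -0.643 to -0.792, and Car1 stood between, at 0.223 to 0.515 with the other 5. These correlations describe 14 points that share organs, mice and array processing, and the split between pylorus and intestine makes up much of their range. Among 7787 genes with a group mean of at least 6 somewhere, the 3 most like Car1 were Fxyd4, a regulator of the sodium pump, at 0.987, Atp12a, the colonic proton-potassium pump, at 0.981 and Ccn3 at 0.980. The 3 most like Car2 were Anxa1 (0.976), Lpcat2 (0.952) and Tnfrsf21 (0.952). For Car4 they were the intestinal transcription factor Isx (0.988), Abhd11os (0.985) and Ces2e (0.982), and for Slc26a3 Cyp2c68 (0.993), Cyp4f40 (0.988) and the claudin gene Cldn15 (0.988). For Guca2a they were Reg4 (0.985), Ccl6 (0.984) and Ang4 (0.981), and for Guca2b the brush border myosin Myo7b (0.991), Usp2 (0.991) and Insl6 (0.990).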

How the data were processed

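The authors deposited Affymetrix mouse gene array values as log2 intensities, in rows of probe sets. RMA, oligo, Partek, R 3.2.3 and limma 3.26.8 are named, without order or role, per the submitters' processing notes. Per the labels' protocols, RNA of sorted cells was amplified to cDNA before labelling. Of 41345 probe sets, 23521 carried 1 gene symbol and gave 22180 genes, with the probe set of highest mean kept. Symbols came from the platform annotation, positions and promoters from RefSeq.

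Each mouse model had its own linear fit of group means (limma 3.58.1 under R 4.3.3), moderated by eBayes, and p-values were adjusted by Benjamini-Hochberg over every gene of the table. The IRES fit used 23 arrays, without the whole colon. The p-values reflect the scatter of biological replicates as labelled, and the number of arrays limits precision. DTR arrays were grouped by title, since their mouse model field names the IRES line. Deviations from group means of equally numbered Lgr5Hi and Lgr5Lo arrays correlated at 0.16, 0.10, 0.27 and 0.30 in the IRES pylorus and at 0.18, 0.14 and 0.24 in the colon. The numbers may thus pair the gates within these organs, though the correlations are weak. Between gates they ran from -0.11 to 0.15 in the DTR pylorus and from -0.02 to 0.17 in WT. Every reported test is without the replicate block unless it is named, so it does not use any such pairing. Between organs the correlations ran from -0.22 to 0.11, so there only a number is shared.

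The 6 genes, the lists and the tests were chosen with earlier results of these data known. Genes were named if they were one of the 6, were called or had one of the smallest p-values of a list, or were among the 3 genes most alike over groups, leaving out unnamed gene models and sex-linked genes. The fit was tested on simulated data. Alternatives were all IRES arrays, 1 fit of all 42 arrays, a replicate block, trend and robust moderation, a filter on dim genes, quantile normalization and leaving out arrays.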

Additional observations from a re-analysis of the deposited data

Results flagged for a closer look

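Car1 in replicate 3 of the IRES pyloric Lgr5Hi cells stood at 6.17, with the other 3 arrays between 3.70 and 3.91. Its gap to the nearest array made up 0.916 of the group's range, past the Dixon limit for 4 samples. This was the single such value among 24 combinations of a gene and a group that were tested, and chance gives about 1 in 20.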

How the results depend on the processing

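No called difference of the 6 genes changed sign under any setting tried. Counts of called genes among the 6 moved as follows. With all 25 IRES arrays, whole colon included, the count fell from 3 to 1 between colonic and small intestinal Lgr5Hi cells, from 5 to 3 between colonic and pyloric Lgr5Hi cells, from 3 to 1 between crypts and Lgr5Hi cells, and from 5 to 4 between small intestinal and pyloric Lgr5Hi cells (Slc26a3, limma adjusted p = 0.0852). In 1 fit of all 42 arrays it was 1 for crypts, 2 in place of 3 between colonic and small intestinal Lgr5Hi cells (Guca2b, limma adjusted p = 0.139), 1 in place of 2 for DTR Lgr5Hi against Lgr5Neg and 0 in place of 1 for DTR Lgr5Hi against Lgr5Lo. The replicate block gave 1 in place of 0 in the IRES pylorus (Guca2b). It gave 1 in place of 2 for DTR Lgr5Hi against Lgr5Neg (Guca2b, limma adjusted p = 0.0668) and 0 in place of 1 for WT (Car2, limma adjusted p = 0.0561). Between organs, where only a number is shared, it gave 3 in place of 2 between colonic and small intestinal Lgr5Lo cells (Guca2b, limma adjusted p = 0.0039). It changed no other call. Quantile normalization gave 0 for WT and called that same Guca2b difference (limma adjusted p = 0.0485). The filter on dim genes removed Car1, and with it 1 call from each of the 4 comparisons of colon with another organ, which left 1 in place of 2 between colonic and small intestinal Lgr5Lo cells. Slc26a3 in crypts was not called with trend and robust moderation (limma adjusted p = 0.0896). Leaving out each array in turn gave counts of 2 to 4 between colonic and small intestinal, 3 to 5 between colonic and pyloric and 4 to 5 between small intestinal and pyloric Lgr5Hi cells, 1 to 3 for crypts, 1 to 2 for DTR Lgr5Hi against Lgr5Neg, 0 to 1 for DTR Lgr5Hi against Lgr5Lo and 0 to 1 for WT. Of these leave-one-out values of single genes, 693 kept direction and side of the threshold, 26 lost a call and 1 gained it.

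Over all genes, 1 fit of all 42 arrays moved the count from 0 to 20 in the colon, 69 to 155 in the small intestine, 518 to 780 in the IRES pylorus, 621 to 1170 in WT, 4062 to 1515, 1102 to 132 and 488 to 24 in the DTR comparisons, and to 16, 231 and 62 for the differences of gate differences. With all 25 IRES arrays 41 genes were called in the small intestine, 330 in the pylorus and 50 for colon minus pylorus, and with the block 112 in the small intestine. The filter on dim genes, which leaves fewer genes to test, gave 26 in the small intestine, 734 for DTR Lgr5Lo against Lgr5Neg, and 1 and 142 for the gate differences of colon against small intestine and pylorus. Leaving out replicate 3 of both IRES pyloric gates, a setting chosen after seeing the data, gave 299 and 56 for the gate differences of colon and small intestine against pylorus. Leaving out each array in turn moved these counts to 0 to 7 in the colon, 2 to 150 in the small intestine, 272 to 665 in the IRES pylorus, 196 to 893 in WT, 325 to 1036 for DTR Lgr5Hi against Lgr5Lo, 181 to 367 for DTR Lgr5Lo against Lgr5Neg, 1542 to 2406 for crypts, and 0 to 36, 11 to 179 and 3 to 57 for the differences of gate differences. Between organs they were 404 to 661, 1370 to 1868 and 1385 to 2877 in Lgr5Hi cells and 587 to 1087, 1116 to 2143 and 1027 to 2550 in Lgr5Lo cells, in the order colon against small intestine, colon against pylorus and small intestine against pylorus. Each of the 6 genes has 1 probe set, so another probe set could not be tried. Groups of 2 or 3 arrays and the absence of detection calls limit what these differences can show. The causes of these changes were not tested.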
